A study of Mus musculus with 16 samples.

Results

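The neural Sox factors other than Sox2 are 8 genes, Sox1, Sox3, Sox4, Sox5, Sox6, Sox9, Sox11 and Sox21. They were chosen by name and not by a rule on measured values, but with earlier results of these data known. Of these, 7 had a row among the 27807 genes of the expression table and all 7 passed the filter of a mean of at least 10 normalised counts; Sox1 was not analysed here. They were measured by sequencing of polyadenylated RNA in 16 libraries of mouse embryonic stem (ES) cells and of embryoid bodies (EBs), the floating aggregates in which ES cells differentiate. The libraries were labelled wild-type (WT, Taf4+/+) or Taf4a-/- (KO), and the KO lines carry a null allele of Taf4a, which encodes a subunit of the general transcription factor TFIID. There were 4 stages, with 2 libraries for each genotype and stage. ES cells were grown with LIF on a layer of inactivated embryonic fibroblasts, EB4 were EBs before retinoic acid (RA), EB5 followed the first day of RA and EB8, labelled neural precursor cells, came later in the same treatment. WT and KO cells had the same medium and the same RA treatment at each stage. Per the design text 2 independent lines stood for each genotype, but the labels do not tie a replicate number to a line, and p-values therefore measure the spread between these libraries only.

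SOX proteins bind DNA through a high-mobility-group box that bends the double helix, and they act with partner factors, of which the POU proteins are the best known in neural cells. In the developing nervous system the SoxB1 proteins, Sox1, Sox2 and Sox3, hold progenitors in an undifferentiated state and Sox21, of the SoxB2 group, counteracts them. The SoxC proteins Sox4 and Sox11 turn on neuronal genes as cells leave the cell cycle, the SoxD proteins Sox5 and Sox6 lack an activation domain of their own and tune the action of other SOX proteins, and the SoxE protein Sox9 marks progenitors that keep stem cell properties and later form glia. Several of them also work outside the nervous system, as Sox5, Sox6 and Sox9 do in cartilage.

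Some of these genes have a single exon and others are long. In the annotation of build NCBI37 (mm9) Sox3 lies on the minus strand of chromosome X from 58144545 to 58146605, Sox4 on the minus strand of chromosome 13 from 29040788 to 29045582, Sox11 on the minus strand of chromosome 12 from 28025562 to 28027574 and Sox21 on the minus strand of chromosome 14 from 118632454 to 118636252, each as 1 block of exon. Sox9 covers 112643538 to 112649074 on the plus strand of chromosome 11 in 3 exon blocks. Sox5 covers 143776945 to 144730497 on the minus strand of chromosome 6 in 25 exon blocks, and Sox6 covers 122614858 to 123182258 on the minus strand of chromosome 7 in 21. The library kit does not mark the strand of a transcript. Sox21 shares 713 exon bases with the antisense lincRNA Gm4675, Sox4 shares 2616 with the antisense lincRNA Gm17419 and Sox5 shares 1330 with the antisense transcript 4933415D12Rik, so that reads of these stretches cannot be assigned to a strand.

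As Taf4a belongs to the complex that binds core promoters, the promoters of Sox11 and Sox4, which rose together in WT, and of Sox21, which followed a different course, are shown. Each runs from 250 bases before to 50 bases after the RefSeq start site (sequences from the RefSeq table of build GRCm38.p6, found at a single place each in NCBI37). They lie on the minus strand at chr12:28027534-28027833 for Sox11, chr13:29045519-29045818 for Sox4 and chr14:118636203-118636502 for Sox21. Capitals mark the CCAAT box, which is written CCAAT on 1 strand and reads as ATTGG on the other.
Sox11: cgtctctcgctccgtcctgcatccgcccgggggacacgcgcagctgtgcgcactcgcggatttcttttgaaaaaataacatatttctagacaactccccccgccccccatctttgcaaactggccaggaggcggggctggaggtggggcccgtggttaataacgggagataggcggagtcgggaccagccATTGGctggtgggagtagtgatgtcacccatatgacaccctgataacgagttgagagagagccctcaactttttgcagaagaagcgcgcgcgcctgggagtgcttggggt
Sox4: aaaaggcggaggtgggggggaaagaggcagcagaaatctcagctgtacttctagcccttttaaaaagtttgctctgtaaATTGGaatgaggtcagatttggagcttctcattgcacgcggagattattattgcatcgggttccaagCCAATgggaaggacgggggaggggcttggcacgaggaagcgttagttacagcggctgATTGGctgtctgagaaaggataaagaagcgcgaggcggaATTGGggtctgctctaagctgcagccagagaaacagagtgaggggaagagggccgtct
Sox21: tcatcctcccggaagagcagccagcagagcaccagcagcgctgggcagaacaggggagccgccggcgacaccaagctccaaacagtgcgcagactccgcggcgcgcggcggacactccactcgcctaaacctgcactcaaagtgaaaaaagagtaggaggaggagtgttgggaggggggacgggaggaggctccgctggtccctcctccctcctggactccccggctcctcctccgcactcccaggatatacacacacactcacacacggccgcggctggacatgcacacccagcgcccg
The Sox4 promoter held 4 CCAAT matches, that of Sox11 held 1 and that of Sox21 held 0. At least 1 match stood in 37.4% of the 32851 promoters in the table. The TATA box core TATAAA, which reads as TTTATA on the other strand and was present in 13.6% of all promoters, and the core of SOX binding sites ACAATG, which reads as CATTGT and was present in 12.6%, had 0 matches in these 3 windows, so that no match overlapped another motif. G and C made up 65.7% of the Sox21 promoter, 58.7% of that of Sox11 and 52% of that of Sox4, against a median of 52.7% over all promoters. The table also held promoters of Sox5 and Sox6, and none for Sox3 and Sox9. That of Sox5 had 39.7% G and C and 1 ACAATG match. This window, at chr6:143895577-143895876, lies inside the gene and not at its annotated 5' end (144730497). Some of the Sox6 windows also lie inside the gene. Those of Sox6 had 36.7% to 63.3% G and C, and some of them held TATAAA or ACAATG matches.

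Depth ran from 22442118 to 40711826 reads per library and was higher in the ES libraries, at 32631020 reads or more, than in the EB libraries, so that stage and depth cannot be told apart where ES cells are compared with EBs. Normalised counts of Taf4a were 1591 to 1959.6 in the WT libraries and 1973 to 2400 in the KO libraries, and since only part of the gene is deleted its total count does not check the label. Genes of chromosome X stood 0.36 to 0.55 (log2) above their mean level in the second WT ES library and in the second KO library of every stage, and between -0.26 and -0.15 elsewhere. The second WT ES library had 0 normalised counts of the Y-linked Ddx3y against 1237 in the first and 174 to 572 in the WT EBs, so it stood apart from the libraries with the same label. Genes of chromosome 8 stood at 0.38 to 0.41 in the first WT EB4, EB5 and EB8 libraries and between -0.16 and 0.03 elsewhere. The first WT ES library, at -0.15, thus also differed from the WT EB libraries of its number. Between WT ES cells and WT EBs, stage and these differences cannot be told apart. In the KO libraries Ddx3y was at 0 to 35.9, and the Y-linked Eif2s3y was at 1.94 to 92.2 against 841 to 1323 in the WT EBs. At EB4, EB5 and EB8 genotype and the level of Y-linked genes therefore cannot be told apart. Markers of pluripotent cells summed to 1588 to 1870 normalised counts in WT EB8 and to 24957 to 27936 in KO EB8, and markers of neural progenitors to 47247 to 50674 and 9162 to 9779. The label neural precursor cells thus goes with its markers in WT EB8 and less so in KO EB8, where these markers were lower. In KO EB8 the progenitor markers Fabp7 and Hes5 were at 3 and 1 and at 14 and 5 reads. Nes had 2831 and 3312 normalised counts there and Vim had 3909 and 4443. In RNA from whole cultures, fewer cells of a type and less RNA per cell cannot be told apart.

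The first question was how the neural Sox genes change as WT cells pass from ES cells to EB8. All 7 measured genes rose in WT, where 24% of all genes tested rose (limma on log2(normalised count + 1), Benjamini-Hochberg adjusted p under 0.05), and their median change was 3.29 on the log2 scale against 0.0092 for all genes. In KO 4 of the 7 rose, Sox4, Sox5, Sox6 and Sox9, where 19.7% of all genes did, and the median was 1.83 against 0.018. The plot of normalised counts by library shows these courses gene by gene.

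**Figure D1:**
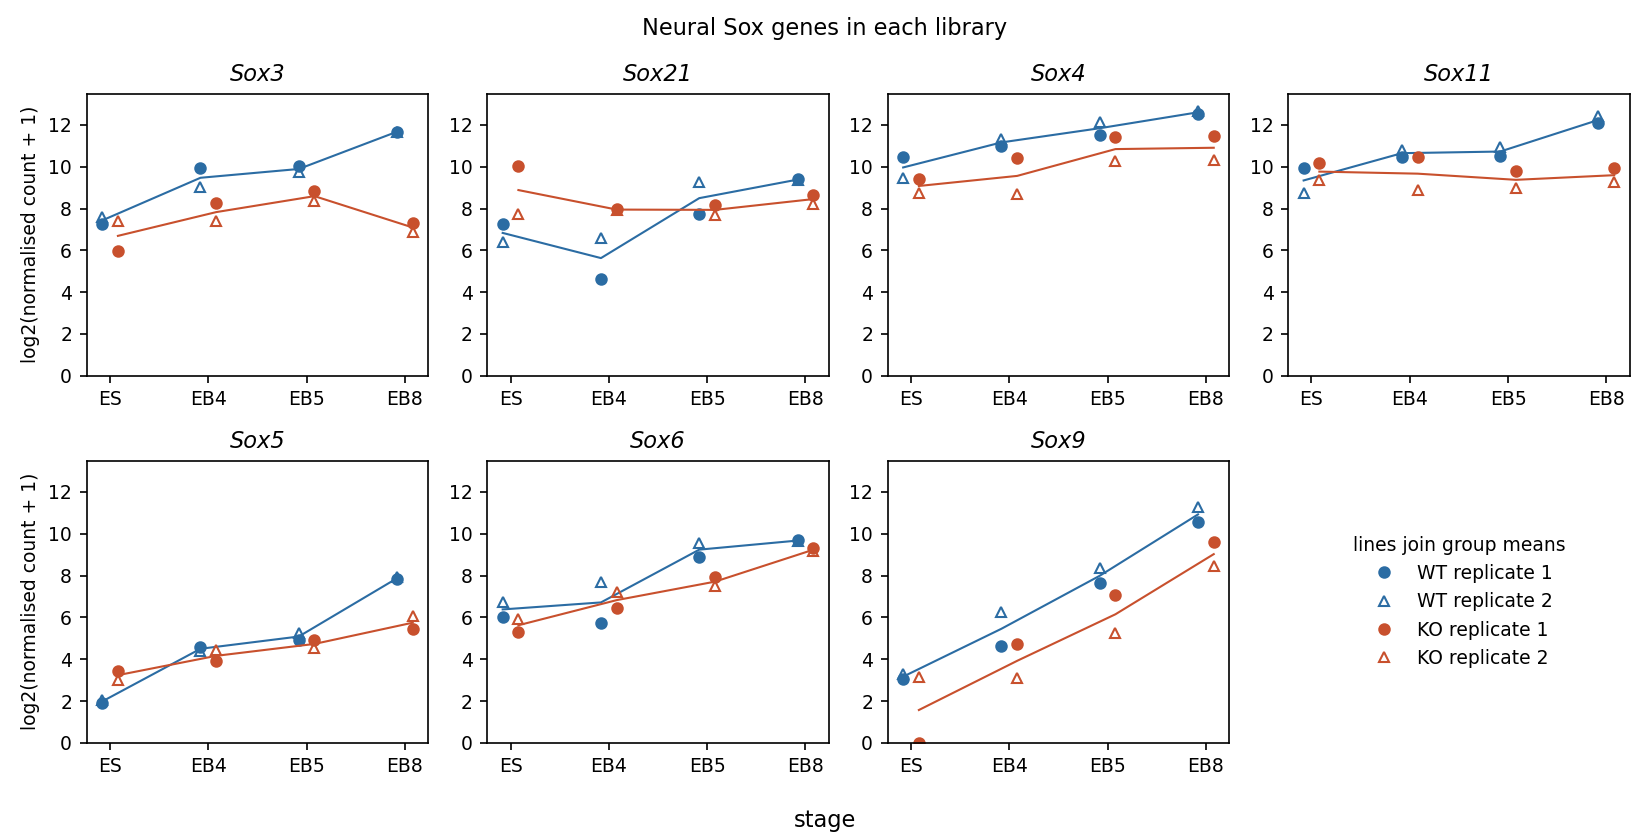
Level of each of the 7 genes, as log2(normalised count + 1), in each library at ES, EB4, EB5 and EB8; blue marks WT, red marks KO, filled circles replicate 1 and open triangles replicate 2, and lines join the group means. At EB8 both KO values lie below both WT values for all 7 genes, with the widest gap for Sox3 and the narrowest for Sox6.

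Sox3, the SoxB1 member measured here, showed the largest difference between genotypes. In WT it had 151 and 195 normalised counts in ES cells (replicates 1 and 2), 969.9 and 517 at EB4, 1059 and 849 at EB5 and 3286 and 3244 at EB8. The KO libraries held 61.4 and 170.1 in ES cells, 304 and 169 at EB4, 454 and 326 at EB5 and 155 and 118 at EB8. The WT values climbed to EB8, whereas the KO values were highest at EB5 and returned at EB8 to the range of the KO ES cells. Genotypes overlapped in ES cells, and from EB4 on both KO values were below both WT values.

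At EB8 the mean of Sox3 was 3265 ± 29.5 in WT and 137 ± 26.1 in KO (n = 2, SD), a 23.9-fold difference of means (log2 difference -4.58 ± 0.45, SE; adjusted p = 6.65e-05, limma). It passed the threshold under all 16 alternative settings, with log2 differences from -4.89 to -4.39. Since Sox3 lies on chromosome X, the level of that chromosome in each library was also subtracted, an alternative added after the data were seen, and the difference was then -4.89 (adjusted p = 0.000121). At EB4 the difference was -1.64 ± 0.45 and just missed the threshold (adjusted p = 0.0526, and from 0.00468 to 0.38 over the alternatives, of which 5 of 16 passed, among them the replicate block within genotype). At EB5 it was -1.30 ± 0.45 (adjusted p = 0.126) and in ES cells -0.74 ± 0.45 (adjusted p = 0.584).

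Between ES cells and EB8 Sox3 rose 18.9-fold in WT (log2 change 4.24 ± 0.45, adjusted p = 2.06e-05, limma). In KO the change was 0.40 ± 0.45 with an interval from -0.58 to 1.39. The difference between these changes was -3.84 ± 0.64 (adjusted p = 0.0054, interaction term) and passed in all 20 alternatives. By single steps, Sox3 rose in WT from ES to EB4 (2.04 ± 0.45, adjusted p = 0.0113) and from EB5 to EB8 (1.78 ± 0.45, adjusted p = 0.0262). The first call was lost without the first WT ES library (1.86, adjusted p = 0.0519) without the first WT EB4 library (1.59, adjusted p = 0.0813) and when only the compared groups were fitted (adjusted p = 0.0931). The second was lost without any 1 of the 4 WT EB5 and EB8 libraries (adjusted p from 0.1 to 0.123).

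Sox21, the SoxB2 gene, behaved otherwise. In WT it had 154 and 82.9 normalised counts in ES cells, 24.1 and 96.5 at EB4, 211 and 614 at EB5 and 674 and 659 at EB8. In KO the values were 1032 and 214 in ES cells, 252 and 239.9 at EB4, 290.1 and 205 at EB5 and 405 and 300.4 at EB8. KO libraries were above WT libraries in ES cells and at EB4, overlapped with them at EB5 and were below them at EB8. The first KO ES library was the highest of all 16, well above the other KO ES library.

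None of these differences passed the threshold in the main test. Sox21 differed by 2.05 ± 0.74 in ES cells (adjusted p = 0.319), by 2.32 ± 0.74 at EB4 (adjusted p = 0.0843), by -0.56 ± 0.74 at EB5 (adjusted p = 0.711) and by -0.93 ± 0.74 at EB8 (log2, KO minus WT; adjusted p = 0.398, limma). DESeq2 on the recovered reads called the excess in KO both in ES cells (adjusted p = 0.0254) and at EB4 (adjusted p = 0.0365), and so did a replicate block within genotype at EB4 (adjusted p = 0.041). From ES cells to EB8 Sox21 rose in WT by 2.55 ± 0.74 (adjusted p = 0.014), a call lost without the second WT ES library (adjusted p = 0.0897) or without either WT EB8 library (0.0564 and 0.0568). In KO it changed by -0.43 ± 0.74 (interval -2.05 to 1.18). The difference between these changes was -2.98 ± 1.05 and did not pass (adjusted p = 0.103), although it did without the second KO ES library (adjusted p = 0.0453) and in DESeq2 (0.0105).

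The SoxC genes, Sox4 and Sox11, had the highest levels of the 7 in WT ES cells per kilobase of exon. Sox11 had 986 and 426 normalised counts in WT ES cells, 1427 and 1797 at EB4, 1450 and 1971 at EB5 and 4310 and 5405 at EB8. In KO it had 1141 and 662 in ES cells, 1391 and 473 at EB4, 878 and 498 at EB5 and 979 and 608 at EB8. WT values rose most after EB5, and KO values stayed between 473 and 1391 at every stage. Genotypes overlapped in ES cells and both KO values were lower from EB4 on.

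At EB8 Sox11 had a mean of 4857 ± 774 in WT and of 794 ± 262 in KO (n = 2, SD), 6.12-fold lower in KO (log2 difference -2.64 ± 0.51, adjusted p = 0.00343, limma). The call held in all 16 alternatives, with differences from -2.99 to -2.30. At EB5 the difference was -1.35 ± 0.51 (adjusted p = 0.156, and 0.0374 with a replicate block within genotype), at EB4 -0.98 ± 0.51 (adjusted p = 0.284) and in ES cells 0.42 ± 0.51 (adjusted p = 0.814). Between ES cells and EB8 Sox11 rose by 2.90 ± 0.51 in WT (adjusted p = 0.000702), and in KO the change was -0.17 ± 0.51 with an interval from -1.29 to 0.94. These changes differed by -3.07 ± 0.73 (adjusted p = 0.0262). That call was lost without any 1 of 5 libraries, namely the second WT ES (adjusted p = 0.0928), the first and second WT EB8 (0.0525 and 0.0899), the first KO ES (0.103) and the second KO EB8 library (0.0813).

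Sox4 rose in both genotypes. It had 1424 and 698 normalised counts in WT ES cells, 2028 and 2583 at EB4, 2974 and 4514 at EB5 and 5896 and 6549 at EB8. The KO values were 671 and 434 in ES cells, 1381 and 411 at EB4, 2750 and 1223 at EB5 and 2846 and 1291 at EB8. Both KO values were below both WT values at every stage, and the first KO library was above the second at all 4 stages.

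Between ES cells and EB8 Sox4 rose by 2.64 ± 0.57 in WT (adjusted p = 0.00259) and by 1.83 ± 0.57 in KO (adjusted p = 0.0245, limma). The KO call was lost without the second KO ES library (1.51, adjusted p = 0.14) or the first KO EB8 library (1.26, adjusted p = 0.185). The changes differed by -0.81 ± 0.81 (interval -2.57 to 0.95, adjusted p = 0.575). At EB8 the means were 6222 ± 461 in WT and 2068 ± 1099 in KO (n = 2, SD), a 3.01-fold difference (log2 difference -1.70 ± 0.57) at the edge of the threshold (adjusted p = 0.0501), and 8 of 16 alternatives put it past, with adjusted p from 0.00396 to 0.292. Without the first KO EB8 library it was -2.27 (adjusted p = 0.0468). At EB4 it was -1.60 ± 0.57 (adjusted p = 0.117), and it passed without the first KO EB4 library (-2.48, adjusted p = 0.0382) and with a replicate block within genotype (adjusted p = 0.014).

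The SoxD genes rose in both genotypes. Sox5 had the lowest mean level of the 7 per kilobase of exon in all 8 groups, although in KO ES cells it overlapped Sox9, which had 0 reads in the first library. Without division by length the Sox9 mean was below that of Sox5 in KO ES cells (3.93 against 8.55) and KO EB4 (16.7 against 17.2). Sox5 had 2.73 and 3.19 normalised counts (3 and 4 reads) in WT ES cells, 23 and 20.4 at EB4, 29.2 and 37.3 at EB5 and 227 and 241 at EB8. KO libraries had 9.96 and 7.15 in ES cells, 14 and 20.4 at EB4, 29.4 and 22.3 at EB5 and 42.2 and 66 at EB8. Sox5 was thus near the floor of detection (3 reads) in WT ES cells, below both KO ES values, and genotypes overlapped at EB4 and EB5 and separated at EB8.

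At EB8 Sox5 had a mean of 234 ± 10.3 in WT and 54.1 ± 16.9 in KO (n = 2, SD), 4.33-fold lower in KO (log2 difference -2.13 ± 0.44, adjusted p = 0.00494, limma). It passed under all 15 alternatives in which it was tested, with adjusted p up to 0.0495. From ES cells to EB8 it rose by 5.89 ± 0.44 in WT (adjusted p = 2.09e-06) and by 2.51 ± 0.44 in KO (adjusted p = 0.00108). The changes differed by -3.38 ± 0.62 (adjusted p = 0.00914), in all 19 alternatives tested. In WT it rose from ES to EB4 (2.52 ± 0.44, adjusted p = 0.00395) and from EB5 to EB8 (2.79 ± 0.44, adjusted p = 0.00222), and the first of these was lost when only the compared groups were fitted (adjusted p = 0.118).

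Sox6 had 63.7 and 107 normalised counts in WT ES cells, 52.6 and 206 at EB4, 478 and 765 at EB5 and 838 and 797 at EB8. The KO libraries had 39 and 60 in ES cells, 86.5 and 147 at EB4, 243 and 179 at EB5 and 632 and 575 at EB8. The KO values lagged at EB5 and came near the WT values at EB8, where both were still lower. At EB8 the difference of -0.44 ± 0.54 was the smallest of the 7 (interval -1.61 to 0.73, adjusted p = 0.599), and at EB5 it was -1.53 ± 0.54 (adjusted p = 0.128, and 0.0332 in DESeq2). From ES cells to EB8 Sox6 rose by 3.29 ± 0.54 in WT (adjusted p = 0.000402) and by 3.61 ± 0.54 in KO (adjusted p = 0.000411, limma). The changes differed by 0.32 ± 0.76 (interval -1.33 to 1.97). In WT the step from EB4 to EB5 passed (2.52 ± 0.54, adjusted p = 0.0212), a call lost without the first WT EB4 library (1.55, adjusted p = 0.168) or the second WT EB5 library (2.19, adjusted p = 0.204), and when only the compared groups were fitted (adjusted p = 0.217).

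Sox9, the SoxE gene, had the largest change of the 7 between ES cells and EB8 in both genotypes. In WT it had 7.28 and 8.77 normalised counts in ES cells, 24.1 and 76.1 at EB4, 198 and 326 at EB5 and 1525 and 2483 at EB8. In KO it had 0 and 7.86 (0 and 11 reads) in ES cells, 25.7 and 7.66 at EB4, 133 and 36.9 at EB5 and 772 and 352 at EB8. Genotypes overlapped in ES cells and at EB4, and both KO values were below both WT values at EB5 and EB8. From EB4 on the first KO library was above the second.

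Sox9 rose by 7.76 ± 0.97 in WT (adjusted p = 6.32e-05) and by 7.45 ± 0.97 in KO (adjusted p = 0.000191, limma). These changes differed by -0.30 ± 1.37, an interval from -3.28 to 2.68 that leaves a several-fold difference in either direction possible. At EB8 the means were 2004 ± 677 in WT and 562 ± 298 in KO (n = 2, SD), 3.57-fold lower in KO (log2 difference -1.90 ± 0.97), which did not pass (adjusted p = 0.181, with 1 of 16 alternatives past). Genes of chromosome 11, where Sox9 lies, stood 0.18 to 0.27 above their mean level in the first KO library of each stage and between -0.13 and 0.03 in the others. With that level subtracted the difference at EB8 was -2.09 (adjusted p = 0.129).

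**Figure D2:**
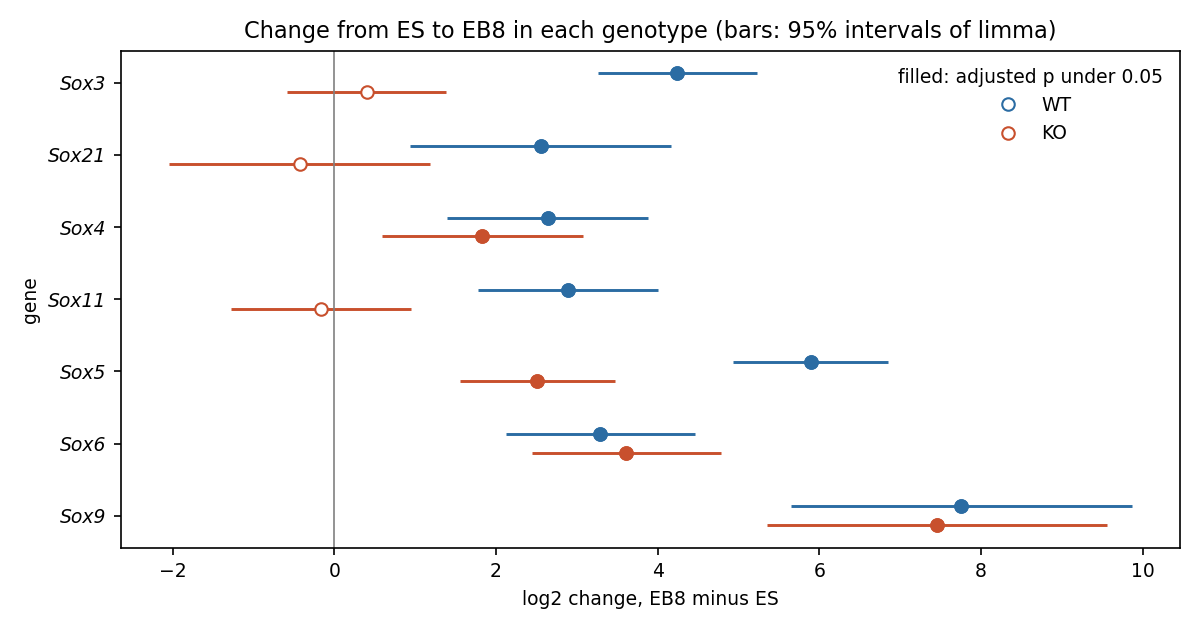
Change in log2(normalised count + 1) from ES cells to EB8 in WT (blue) and KO (red) for each gene, with 95% intervals from limma; filled points have an adjusted p under 0.05. Sox6 rose by 3.29 in WT and 3.61 in KO and Sox9 by 7.76 and 7.45, whereas the KO intervals of Sox3, Sox11 and Sox21 include 0.

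The KO and WT libraries were then compared over the whole group at each stage. At EB8 3 of the 7 genes were lower in KO and 0 higher, where 12.5% of all genes tested were lower, and the median of the 7 differences was -1.90 against -0.029 for all genes. Over all genes 1677 were higher and 2020 lower in KO, and 2278 and 1615 with upper-quartile rescaling. At EB4 and EB5 0 of the 7 passed, where 6.12% and 4.34% of all genes did. With a replicate block within genotype, 3 passed at EB4 (Sox3 and Sox4 lower, Sox21 higher, where 12.3% of all genes passed in that fit) and 1 at EB5 (Sox11 lower, 9.67%). By an unadjusted p under 0.05 there were 3 at EB4 (Sox3, Sox4 and Sox21, 22.7% of all genes) and 3 at EB5 (Sox3, Sox6 and Sox11, 20.7%). In ES cells 0 of the 7 and 0% of all genes passed in limma, with 2 of the 7 (Sox5 and Sox21) and 11.4% of all genes at an unadjusted p under 0.05.

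edgeR called 0 of the 7 at each of these 3 stages, where it called 0%, 5.03% and 3.74% of all genes in ES cells, at EB4 and at EB5. DESeq2 called 1 in ES cells (Sox21, 3.27% of all genes), 2 at EB4 (Sox3 and Sox21, 13.4%) and 2 at EB5 (Sox3 and Sox6, 10.7%).

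The number of genes with both KO values below both WT values was 2 of 7 in ES cells, 3 at EB4, 5 at EB5 and 7 at EB8. The same arrangement was found in 20.7%, 26.6%, 28.1% and 33.5% of all genes. Both KO values were above both WT values for 2 genes in ES cells (Sox5 and Sox21), where 19% of all genes had this order, and for 1 at EB4 (Sox21), where 25.3% did.

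**Figure D3:**
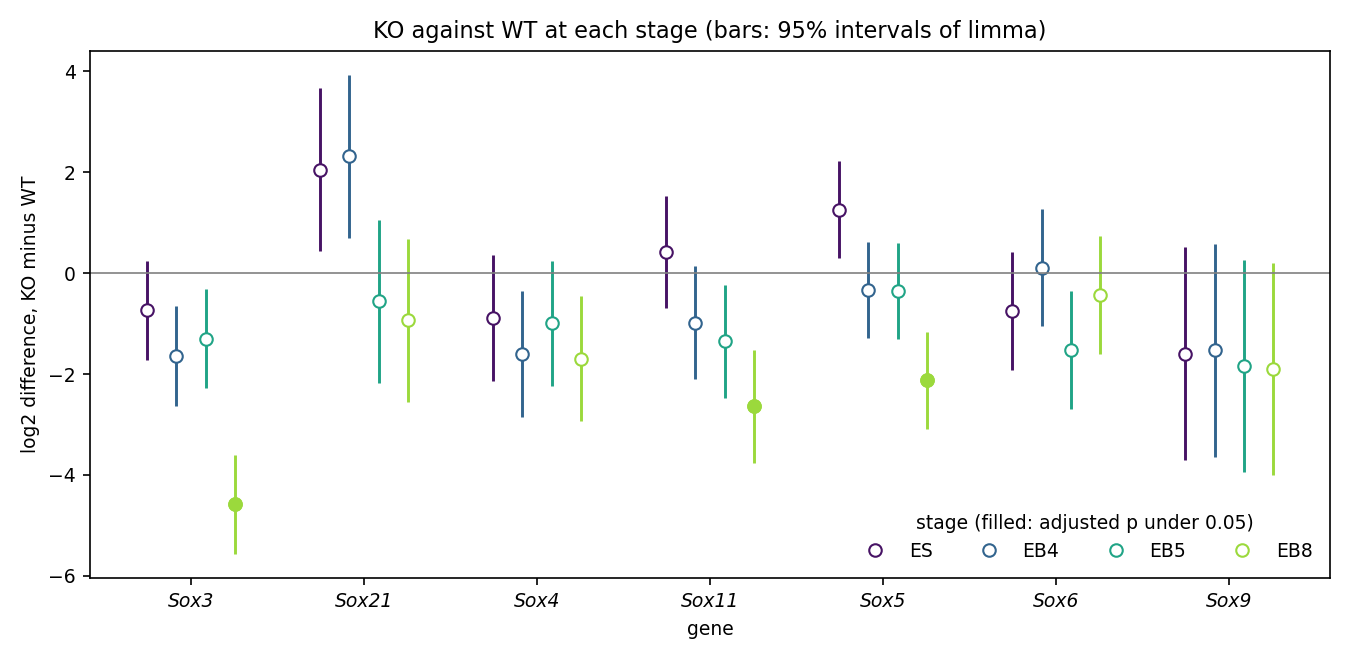
Difference in log2(normalised count + 1) between KO and WT at ES, EB4, EB5 and EB8 for each gene, with 95% intervals from limma; filled points have an adjusted p under 0.05. The filled points are the 3 EB8 differences of Sox3 (-4.58), Sox11 (-2.64) and Sox5 (-2.13), and Sox21 moves from 2.05 in ES cells to -0.93 at EB8.

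By single steps in WT, 2 of 7 rose from ES to EB4 (Sox3 and Sox5, 8.98% of all genes), 1 from EB4 to EB5 (Sox6, 2.59%) and 2 from EB5 to EB8 (Sox3 and Sox5, 5.82%). In KO 0 of 7 passed in each of these steps, where 3.5%, 2.51% and 0.738% of all genes passed in limma. By an unadjusted p under 0.05 the KO steps had 3, 2 and 4 genes, where 21.4%, 16.3% and 12.8% of all genes had one. edgeR called 0 of the 7 in each step (3.12%, 2.26% and 0.515% of all genes) and DESeq2 called 0, 0 and 2 (12.1%, 6.43% and 4.18%).

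The differences between the genotypes in a step were called for 0 of 7 from ES to EB4 and from EB4 to EB5, as for 0% of all genes. At an unadjusted p under 0.05 there was 1 gene in each of those steps, Sox5 (7% of all genes) and Sox21 (2.96%). edgeR called 0 of the 7 and 0% of all genes in both, and DESeq2 called 0 of the 7 where it called 0.723% and 0.0248%.

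From EB5 to EB8 the step differed between genotypes for Sox3 alone of the 7 (-3.28 ± 0.64, adjusted p = 0.0373), in a comparison where 0.682% of all genes had a lower change in KO. The Sox3 call was lost without any 1 of the 8 EB5 and EB8 libraries (adjusted p from 0.0763 to 0.143, log2 difference from -3.52 to -3.04) with the level of chromosome X subtracted (0.0772), with no filter on low values (0.0515) and with upper-quartile rescaling (0.0501). Over the whole course, the change from ES cells to EB8 was lower in KO for 3 of 7, Sox3, Sox5 and Sox11, where 3.44% of all genes had a lower change.

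Levels were also ranked per kilobase of exon, so that genes could be compared with each other. The length was that of all annotated exon blocks together, such as 14376 bases for Sox5 and 2013 for Sox11. The order between genes depends on this choice. In WT EB8 the order of mean level was Sox11 (2413 normalised counts per kb), Sox3 (1584), Sox4 (1298), Sox9 (485), Sox21 (175), Sox6 (92.4) and Sox5 (16.3), and no neighbours in this order overlapped. In KO EB8 the order was Sox4 (431), Sox11 (394), Sox9 (136), Sox21 (92.9), Sox6 (68.2), Sox3 (66.3) and Sox5 (3.77), and the ranges of Sox4 and Sox11, of Sox9 and Sox21, and of Sox6 and Sox3 overlapped. Sox3 thus stood in the second place in WT and next to last in KO. In ES cells of both genotypes Sox11 was first, with 351 per kb in WT, where it overlapped Sox4 (221), and 448 in KO.

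Across the 16 libraries the closest pair of the 7 was Sox6 and Sox9 (Pearson r = 0.93 of log2 values), followed by Sox5 and Sox9 (0.86), Sox4 and Sox9 (0.85) and Sox4 and Sox11 (0.82). Sox21 was the least like the others, with r from 0.03 with Sox3 to 0.46 with Sox6. These values describe 16 libraries that share the course of differentiation and are not independent. Among all other tested genes those most like Sox3 were Dtx4 (0.949), Sept3 (0.947) and Lrp3 (0.946). For Sox11 they were Ctbp1 (0.971), Vangl2 (0.951) and Zbtb12 (0.943), and for Sox4 Ak5 (0.965), Gprin1 (0.963) and Gm266 (0.962). The closest to Sox5 were Pacs2 (0.968), Ppp2r5e (0.967) and Acvr2a (0.960), and to Sox6 Synpo (0.965), Mxd4 (0.960) and Rps6ka3 (0.958). Sox9 was most like Gas1 (0.979), Edil3 (0.969) and Ncoa6 (0.968). The best for Sox21 reached less, with Entpd7 (0.886), Edem3 (0.862) and Stx18 (0.862).

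The other Sox genes differed in both directions at EB8. Of 12 listed, 11 had a row and 10 were tested; Sry was not analysed here and Sox14 was below the filter. Of these 10, Sox10 and Sox15 were higher in KO and Sox12 and Sox17 lower at EB8, where 22.9% of all genes passed in either direction, and their median difference was 0.11. Sox15 had 8.4 and 8.47 normalised counts in WT at EB8 against 472 and 214 in KO (log2 difference 5.08 ± 0.35, adjusted p = 9.86e-06, limma), and it was also higher at EB4 (2.29) and EB5 (2.46). Sox12, the third SoxC gene, was lower in KO at EB4 (-1.06 ± 0.24, adjusted p = 0.0279), EB5 (-1.16 ± 0.24, adjusted p = 0.024) and EB8 (-1.27 ± 0.24, adjusted p = 0.00301). Sox10, a SoxE gene of the neural crest, had 7.35 and 20.1 normalised counts in WT at EB8 against 168 and 73.5 in KO (3.08 ± 0.76, adjusted p = 0.0122). Sox17, an endoderm gene, was at 339 and 483 in WT against 53.8 and 72.4 in KO (-2.68 ± 0.88, adjusted p = 0.046). Sox2, which shares the SoxB1 group with Sox3, had 3951 and 5241 normalised counts in WT at EB8 against 6517 and 3904 in KO, so that genotypes overlapped (0.15 ± 0.24, interval -0.37 to 0.67).

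**Figure D4:**
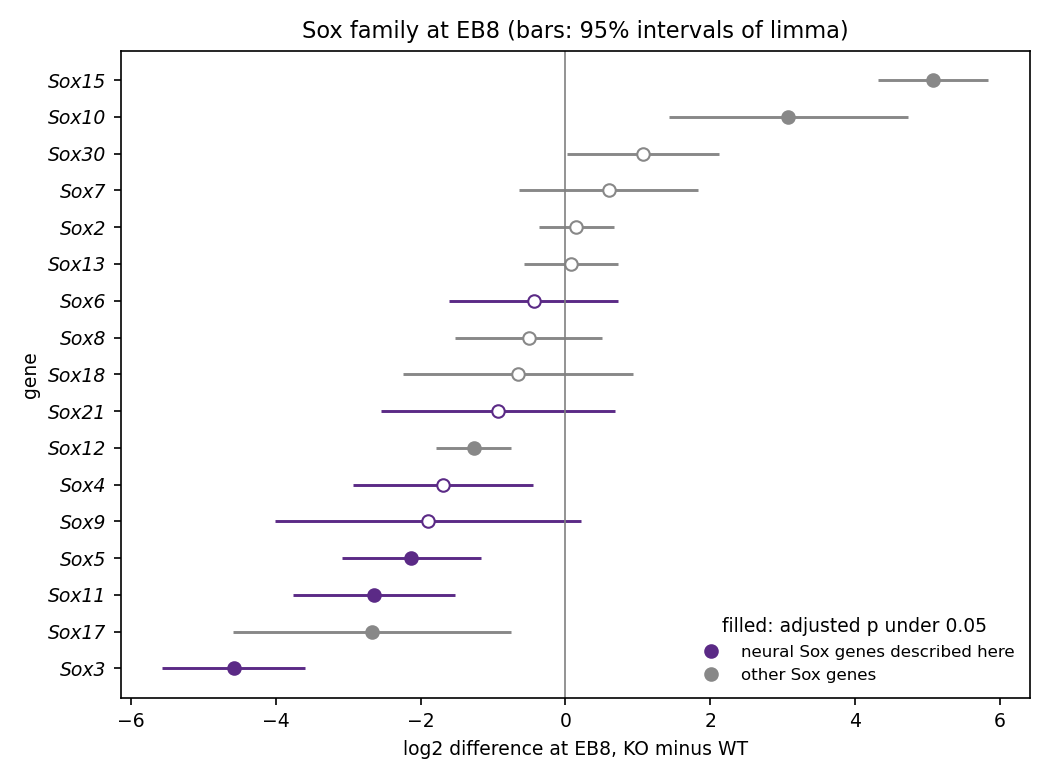
Difference in log2(normalised count + 1) between KO and WT at EB8 for the 7 neural Sox genes (purple) and 10 other Sox genes (grey), with 95% intervals from limma; filled points have an adjusted p under 0.05. All 7 purple points lie below 0, from -4.58 for Sox3 to -0.44 for Sox6, while the grey points run from -2.68 for Sox17 to 5.08 for Sox15.

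Genes known as partners or targets of neural SOX proteins were taken as a list of 26, of which 25 were tested. At EB8 17 were lower and 1 was higher in KO, where 12.5% of all genes were lower and 10.4% higher, with a median difference of -1.63 against -0.029 for all genes. The largest differences were those of Pou3f4, a POU partner (887 and 459 normalised counts in the WT libraries against 8.44 and 2.13 in the KO libraries, log2 difference -6.88 ± 0.77), of Fabp7, a SoxB1 and POU target of radial glia, and of the Notch effector Hes5 (811 and 1101 against 14.8 and 5.33, -6.57 ± 0.81). Fabp7 had 354 and 281 normalised counts in WT and was at the floor in KO, so that no fold is given, and its fitted difference lay between those of Pou3f4 and Hes5. Tubb3, a neuronal tubulin activated by SoxC proteins, had 5245 and 5470 normalised counts in the WT libraries against 555 and 272 in the KO libraries (-3.78 ± 0.27, adjusted p = 1.01e-05, limma). The gene that was higher in KO was Acan, a cartilage proteoglycan controlled by Sox9 with Sox5 and Sox6, with 51.5 and 21.2 in the WT libraries against 333 and 371 in the KO libraries (3.37 ± 0.56, adjusted p = 0.0013). From ES cells to EB8 Acan fell in WT (-3.24 ± 0.56, adjusted p = 0.00057) and changed by 0.64 ± 0.56 in KO (adjusted p = 0.393). Col2a1, a cartilage collagen under the same SOX proteins, was lower in KO (-1.37 ± 0.45, adjusted p = 0.0452).

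Some of the 25 tested genes of that list also passed at earlier stages. At EB4 1 was higher (Tubb3) and 1 lower (Tead2) in KO, where 6.12% of all genes passed in either direction. At EB5 2 were higher (Nfib and Tubb3) and 2 lower (Pou3f2 and Pax6), where 4.34% of all genes passed. Between ES cells and EB8 20 of the 25 rose and 5 fell in WT, where 24% of all genes rose and 22.8% fell, and 6 rose and 5 fell in KO, where 19.7% rose and 18% fell. The EB8 counts of this list share the WT and KO libraries with those of the Sox genes.

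Markers of cell types were also compared at EB8, and their counts stand beside the 12.5% of all genes that were lower and the 10.4% that were higher in KO. Tubb3, Dcx, Map2, Stmn2, Pax6, Nes, Fabp7 and Hes5 were also in the list of partners and targets. Sox10 and Sox17 were also among the other Sox genes. All 6 neuron markers were lower in KO, their sum being 19029 to 25278 normalised counts in WT and 1579 to 1738 in KO, and 6 of 7 progenitor markers were lower. Among the neuron markers Stmn2 was highest in ES cells, with means of 5897 in WT and 5602 in KO. Tubb3 had means of 2222 and 3998 there. In the second KO EB8 library Stmn2 alone had 1003 normalised counts. Of 7 pluripotency markers 6 were higher. Of 6 neural crest markers Sox10 was higher and Foxd3 and Tfap2b were lower, with sums of 1524 to 2301 in WT and 1153 to 1419 in KO. Of 5 endoderm markers 4 were tested and 2, Sox17 and Foxa2, were lower, with sums of 1531 to 1805 and 608 to 668. The sums of 5 mesoderm markers overlapped, at 438 to 1120 in WT and 692 to 1478 in KO. The same held for 7 markers of fibroblasts, the cells of the feeder layer, at 2104 to 2773 in WT and 877 to 3137 in KO. In ES cells the fibroblast markers summed to 1033 to 2650 in WT and 209 to 494 in KO, beside the ES differences of the Sox genes. Of 5 glial markers 4 were tested and 1, Aldh1l1, was higher in KO, and S100b was at or under the floor in both genotypes. The part of these cell types in the Sox differences was not tested.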

How the data were processed

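Per the labels, the authors made poly-A libraries without strand marking, read them from one end, aligned the reads to mm9 with TopHat2 2.0.10, counted reads per gene with HTSeq 0.5.4p3 and normalised with DESeq2 1.0.19. The annotation release used was not given in the sources used here. The deposited signal is the read count of each gene over the size factor that DESeq2 gave its library. In all libraries 100% of values were a whole number of steps of 1 size (tolerance 0.001), so whole reads and depth were recovered.

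The main test was limma 3.58.1 (R 4.3.3) on log2(value + 1), with 1 mean for each of 8 groups over 16 libraries, a spread shared between groups (8 residual and 4.27 prior degrees of freedom) and eBayes with trend. Of 27807 genes, 16124 with a mean of at least 10 were tested, with Benjamini-Hochberg adjustment over all of them and a threshold of 0.05. The pseudocount understates changes of low genes, such as Sox5 and Sox9 in ES cells. As the values are normalised, edgeR 4.0.16 (quasi-likelihood) and DESeq2 1.42.0, the tool of the study, were run on recovered reads as alternatives. Gene positions came from GENCODE M1 (NCBI37), which held 27603 of the identifiers. A gene with 3 reads or fewer was taken as at the floor, which covers counting error only. The code was tested on simulated data.

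Members, gene lists, named genes and tests were chosen with earlier results of these data known. Named genes were the members, the other Sox genes that passed between genotypes, examples with the largest EB8 changes among partners and targets (Tubb3, Col2a1 and Sox2 were added after their values were seen), and the 3 genes most correlated with each member. Contrasts from ES cells to EB8 were added after the data were seen. Alternatives were other pseudocounts, filters, scalings, fits, tools, a replicate block and leaving out each library. Where 1 library of a group was left out, the other was assumed to vary like the other groups. Python 3.11.15 was used for the remaining steps.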

Additional observations from a re-analysis of the deposited data

Results flagged for a closer look

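Differences between WT and KO in a change over time passed the test of the difference itself (interaction term, limma, Benjamini-Hochberg adjusted p under 0.05) in 4 cases. For the change from ES cells to EB8 they were Sox3 at -3.843 (log2, KO change minus WT change; adjusted p = 0.0054), Sox5 at -3.384 (adjusted p = 0.00914) and Sox11 at -3.067 (adjusted p = 0.0262). For the step from EB5 to EB8 it was Sox3 at -3.282 (adjusted p = 0.0373). The contrasts from ES cells to EB8 were added after the data were seen. The Sox5 value includes a difference in ES cells of 1.257 (adjusted p = 0.299, limma), from 3 and 4 reads in WT and 12 and 10 in KO. At EB8 alone the Sox5 difference was -2.127. The difference over the whole course passed in all 20 alternatives for Sox3, in all 19 for Sox5 and in 15 of 20 for Sox11, and the Sox3 step from EB5 to EB8 passed in 9 of 20.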

How the results depend on the processing

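With 2 libraries a group, small differences could not be detected, and 1 library decides several calls. Of 192 counts of members under other settings 168 were within 1.5 times the main count, as were 62 of 80 with 1 library left out. Of the values per gene 908 kept direction and side of the threshold, 25 moved past it, 32 fell short and 16 reversed. The cause was not tested. For most of the settings below the share of all genes is not given. Those counts therefore show only how far the calls depend on the setting.

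For KO against WT at EB4 (0 of 7), a pseudocount of 5, a mean of at least 50 and the replicate block each gave 1, and DESeq2 gave 2. DESeq2 gave 1 in ES cells and 2 at EB5 (0 each in limma), and 2 for EB5 to EB8 in KO (0). At EB8 (3) fitting only the compared groups gave 5, and the share of all genes in that fit is not given. For ES to EB4 in WT (2) a mean of at least 50, at which Sox5 is not tested, gave 1 and only the compared groups 0. For EB4 to EB5 in WT (1) upper-quartile rescaling and chromosome level subtracted gave 2, DESeq2 3 and only the compared groups 0. For EB5 to EB8 in WT (2) a mean of at least 50 gave 1, and DESeq2 and only the compared groups gave 4. The difference in that step (1) was 0 with no filter, upper-quartile rescaling and chromosome level subtracted. Upper-quartile rescaling put the median of all genes at EB8 at 0.11 (main -0.029).

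With 1 library left out, the counts were 0 to 1 at EB4, 1 to 2 for ES to EB4 in WT, 0 to 2 for EB4 to EB5 in WT, 1 in every case for EB5 to EB8 in WT and 0 in every case for the difference in that step.

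Replicates 1 and 2 differed alike within KO (correlation across genes 0.23 to 0.42) and within the WT EBs (0.52 to 0.61), but not between genotypes at EB4, EB5 and EB8 (-0.21 to -0.06; 0.34 in ES cells). The numbers were therefore not taken to pair libraries between genotypes, and within a genotype the labels do not say what they stand for, although libraries of 1 number deviated together there except the WT ES cells (-0.18 to -0.05 with the WT EBs). With the replicate block within genotype the counts were 3 at EB4 (replicate block alone 1), 1 at EB5, 4 for ES to EB4 and 2 for EB4 to EB5 in WT. For these WT steps the share of all genes in that fit is not given. The replicate block changed no other count by over 1.5 times.

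None of the 16 values that reversed had passed the threshold, before or after. Sox6 at EB4 (main 0.11) was -0.15 in edgeR and DESeq2, and between -0.86 (without the first WT EB4 library) and 1.08 with 1 library left out, including -0.27 without the second KO EB4 library. The Sox9 difference in the ES to EB8 change (-0.30) was 1.28 with a pseudocount of 0.1 and -1.88 to 1.27 with 1 library left out, above 0 without the second WT EB8 (0.048), KO ES (1.27) or KO EB8 library (0.26). From ES cells to EB8 in KO, Sox3 (0.40) was -0.18 with quantile normalisation and -0.33 to 1.13 with 1 library left out, Sox11 (-0.17) was -0.56 to 0.22 and Sox21 (-0.43) was -1.56 to 0.70, each turning sign without the first KO ES library, and Sox11 also without the second KO EB8 library (0.17). Without the second WT ES library Sox11 in ES cells (0.42) was -0.18, in a range up to 1.03, and the Sox6 difference in the ES to EB8 change (0.32) was -0.050, in a range up to 0.69. Sox21 at EB5 (-0.56) was -1.33 to 0.21, turning without the second WT EB5 library.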
